A study of Mus musculus with 5 samples.

Results

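The genes described here are the 8 that build and regulate the motor filament of the heart muscle cell: the heavy chains Myh6, Myh7 and Myh7b, the light chains Myl2, Myl3 and Myl4, the myosin binding protein Mybpc3 and the light chain kinase Mylk3. They were chosen by symbol from a table of 41128 genes; each symbol matched 1 row, and all 8 were among the 14989 genes tested (mean of at least 10 normalized reads). The study sequenced RNA from the nuclei of heart muscle cells of FVB mice aged 8 weeks, at day 7 of an infarct made by tying off the left anterior descending artery for good. The border zone, the tissue next to the infarct, gave 3 libraries (mice 32, 34 and 40), and remote myocardium, away from the infarct, gave 2 libraries (mice 40 and 43). Both regions were microdissected and frozen, and nuclei stained for PCM-1, a centrosomal protein that lies around the nucleus in heart muscle cells, were sorted by flow cytometry. All 5 libraries came from infarcted hearts, so neither region is an uninjured heart, and no sham-operated heart was analysed here. The RNA was nuclear, and cDNA was made from an input of 500 pg with an amplifying kit, the NuGEN Ovation V2 kit. Only mouse 40 gave both regions; its libraries were treated as independent, and the p-values below measure the spread between libraries.

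Myosin is a motor protein of paired heavy chains, each with a head that pulls on actin and a neck that carries an essential and a regulatory light chain. In the adult mouse ventricle the alpha heavy chain (Myh6) is the main form and the slower beta heavy chain (Myh7) is the fetal form that often returns in stressed hearts, which is why the Myh7 to Myh6 ratio is a common measure of cardiac stress. Myh6, Myh7 and Myh7b each hold a microRNA in an intron (Mir208a, Mir208b and Mir499), and Mhrt, a long non-coding RNA of the heart, is transcribed from the opposite strand at Myh7.

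The microRNAs are shown because their hairpin genes lie inside the heavy chain genes and were counted beside them. The mature forms, from RefSeq (GRCm38.p6), run 5′ to 3′ with the seed, bases 2 to 8, in capitals:
mmu-miR-208a-3p: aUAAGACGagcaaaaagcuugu
mmu-miR-208b-3p: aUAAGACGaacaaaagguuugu
mmu-miR-499-5p: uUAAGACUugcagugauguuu
The forms from Mir208a and Mir208b share the seed UAAGACG, and that from Mir499 has UAAGACU. The hairpins, which are what the table counts, have the mature arm in capitals:
Mir208a hairpin: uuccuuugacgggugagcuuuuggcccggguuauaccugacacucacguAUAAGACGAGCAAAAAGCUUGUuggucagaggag
Mir208b hairpin: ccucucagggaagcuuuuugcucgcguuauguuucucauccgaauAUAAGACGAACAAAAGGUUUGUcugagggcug
Mir499 hairpin: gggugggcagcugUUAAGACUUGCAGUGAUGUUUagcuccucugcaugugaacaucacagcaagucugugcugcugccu
Mir208a lies at chr14:54949060-54949142 on the minus strand, inside Myh6 (chr14:54941921-54966927), and Mir208b at chr14:54975700-54975776 on the minus strand, inside Myh7 (chr14:54970684-54994626). Mir499 lies at chr2:155622880-155622958 on the plus strand, inside Myh7b (chr2:155611212-155634307). In the GENCODE models of the same build none of the hairpins shares a base with an exon of its host, so all are intronic.

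The libraries held 11324539 to 25014205 reads assigned to genes. At the depth of the shallowest library, 15843 to 19602 genes had a read in border zone libraries and 22386 to 22670 in remote libraries. The 10 most abundant genes took 45.6% to 60.3% of the reads of border zone libraries and 34.4% to 43.5% of those of remote libraries, so the most abundant genes and the number of genes seen moved with the region. All 7 cardiomyocyte markers had reads in each library, with a summed level of 212107 to 597758 normalized reads in the border zone and 134289 to 175753 in remote myocardium. Tnnt2 and Ryr2 made up most of that sum. Pln, a regulator of the calcium pump, was lower in all border zone libraries, with 341, 623 and 1938 normalized reads in mice 32, 34 and 40, against 3390 and 6271 in remote myocardium of mice 40 and 43. Pcm1, whose protein was stained for the sort, was lower too, with 404 to 639 normalized reads in the border zone and 805 to 938 in remote myocardium, and Actc1 overlapped. Of the 6 atrial markers, Sln, Myl7 and Bmp10 were at 0 in all 5 libraries. Sbk2, Dkk3 and Nr2f2 had 0 to 1.23, 0 to 65.2 and 4.69 to 102 normalized reads in the border zone. In remote myocardium they had 6.04 to 22.7, 24.2 to 40.9 and 7.31 to 54.4. Smooth muscle and pericyte markers, mostly Cspg4, summed to 5756 to 12434 normalized reads in the border zone and 807 to 2151 in remote myocardium. In the border zone, against remote myocardium, fibroblast markers summed to 3382 to 5027 against 1937 to 2748, endothelial markers to 208 to 614 against 308 to 390, and macrophage markers to 91.9 to 217 against 174 to 235. Of the fibroblast markers, Col1a1 and Col3a1 were higher in all border zone libraries, and Col1a2, Pdgfra and Postn overlapped. Dcn was lower in all of them, with 18.8 to 27.1 normalized reads against 51.3 and 192. Lymphocyte markers summed to 23.5 to 103 in the border zone and 13.9 to 21.9 in remote myocardium. The part of these differences in the results below was not tested. In bulk nuclei, fewer cells of a type and less RNA per cell cannot be told apart.

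Of the 8 members, 0 passed the test between border zone and remote myocardium in either direction. The 3 heavy chain genes and Mybpc3 had log2 changes of 0.99 to 1.14, and for each heavy chain gene the border zone libraries differed from each other by more than that. In normalized reads, mouse 32 was the highest for all 4 of these genes and mouse 40 the lowest of the 3. Within mouse 40, Myh6 and Myh7 were slightly lower in its border zone than in its remote myocardium. The background is the same: limma called 0% of tested genes higher and 0% lower at an adjusted p under 0.05, with 2708 genes at an unadjusted p under 0.05, and edgeR called 0. The authors' deposited table, from DESeq2, calls 3.46% of its genes higher and 1.98% lower, and 0 of the 8 members.

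Myh6, the alpha heavy chain, had 769995, 404544 and 175991 normalized reads in the border zone of mice 32, 34 and 40, against 220057 and 134632 in remote myocardium of mice 40 and 43. The border zone of mouse 40 lay between the remote libraries, so the groups overlapped. Myh6 was among the 6 genes with most normalized reads in every library, with ranks of 5, 5 and 6 in the border zone and 3 and 4 in remote myocardium. The log2 change was 1.14 ± 0.84 (SE; limma, adjusted p = 0.479), and the authors' deposited table gives 1.34 with an adjusted p of 0.278.

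Myh7, the beta heavy chain, had 289140, 158609 and 90032 normalized reads in the border zone of mice 32, 34 and 40, against 96965 and 58971 in remote myocardium of mice 40 and 43. Again only the border zone of mouse 40 fell inside the remote range. The means were 179260 ± 101148 in the border zone (SD, n = 3) and 77968 ± 26866 in remote myocardium (SD, n = 2). The fit gave a log2 change of 1.09 ± 0.70 (SE; limma, adjusted p = 0.424), and 1.20 with an adjusted p of 0.302 in the authors' deposited table.

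Myh7b, a slow-type heavy chain gene that hosts Mir499, had 119732, 35404 and 25162 normalized reads in the border zone of mice 32, 34 and 40, against 24395 and 21624 in remote myocardium of mice 40 and 43. The 3 border zone libraries were all above the remote ones, although mouse 40's border zone exceeded its own remote myocardium by only 0.04 on the log2 scale. The log2 change was 1.05 ± 0.67 (SE; limma, adjusted p = 0.422). Without the border zone of mouse 32 it was 0.38, against 0.63 for Myh6 and 0.66 for Myh7.

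**Figure D1:**
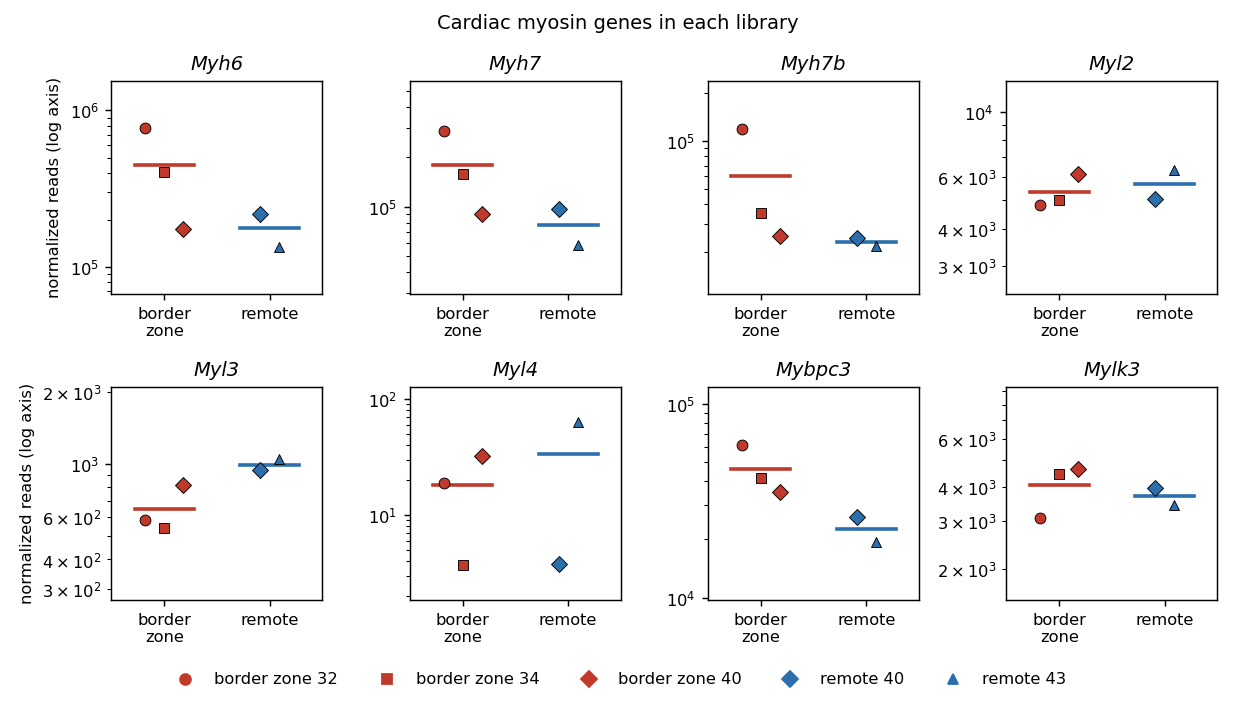
Normalized reads (log axis) of the 8 genes in each library, border zone left of remote; symbols mark the mouse and bars the group mean. Border zone library 32 stands highest for Myh6, Myh7, Myh7b and Mybpc3, and for Myl3 all border zone points lie below the remote ones.

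The Myh7 to Myh6 ratio needs no scaling between libraries. There were 37.6, 39.2 and 51.2 Myh7 reads per 100 Myh6 reads in the border zone of mice 32, 34 and 40, against 44.1 and 43.8 in remote myocardium of mice 40 and 43. The remote libraries lay inside the border zone range, so the groups overlapped. The means were 42.6 ± 7.42 in the border zone (SD, n = 3) and 43.9 ± 0.185 in remote myocardium (SD, n = 2). The mean log2 ratio differed by -0.06 (exact permutation test, two-sided, p = 0.8; 3 libraries against 2 cannot go below 0.2). Within mouse 40 the ratio was 1.16-fold higher in the border zone, and without border zone library 32 the difference was 0.03. The border zone values ran from below to above both remote values, so these libraries do not fix a direction for the ratio.

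Reads of Myh6 and Myh7 are not fully separable. Their annotated transcripts share 22.6% of the 50-base stretches of Myh6 and 22.2% of those of Myh7; at 100 bases the shares are 11.4% and 11.2%. Neither shares a stretch of either length with Myh7b. No source used here gives the read length or how reads in shared stretches were counted.

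Mybpc3, the protein that links myosin to the thin filament and tunes its speed, had 60974, 41655 and 35004 normalized reads in the border zone of mice 32, 34 and 40, against 26043 and 19346 in remote myocardium of mice 40 and 43. All border zone libraries were above both remote ones, and mouse 40 showed the same order within 1 heart, by 0.43 on the log2 scale. The means were 45878 ± 13490 in the border zone (SD, n = 3) and 22695 ± 4736 in remote myocardium (SD, n = 2). It had a log2 change of 0.99 ± 0.53 (SE; limma, adjusted p = 0.337). The authors' deposited table gives Mybpc3 a log2 change of 1.02 with an adjusted p of 0.295.

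Mylk3, the kinase that phosphorylates the regulatory light chain in heart muscle, had 3067, 4454 and 4632 normalized reads in the border zone of mice 32, 34 and 40, against 3968 and 3442 in remote myocardium of mice 40 and 43. Here mouse 32, highest for the heavy chains, was the lowest of all 5 libraries, and the groups overlapped. In the fit Mylk3 had a log2 change of 0.11 ± 0.44 (SE; limma, adjusted p = 0.911).

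Among the light chains, Myl2, the ventricular regulatory light chain, had 4809, 5018 and 6145 normalized reads in the border zone of mice 32, 34 and 40, against 5053 and 6352 in remote myocardium of mice 40 and 43. Its groups overlapped and its log2 change was -0.10 ± 0.44 (SE; limma, adjusted p = 0.919). Myl3, the ventricular essential light chain, had 586, 540 and 818 normalized reads in the border zone of mice 32, 34 and 40, against 944 and 1049 in remote myocardium of mice 40 and 43. In normalized reads, Myl3 was the only member with all border zone libraries below both remote ones. Its log2 change was -0.64 ± 0.48 (SE; limma, adjusted p = 0.486), with -0.21 within mouse 40.

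Myl4, the essential light chain of atrial and fetal heart muscle, was near the limit of detection. It had 12, 3 and 41 reads before normalization in the border zone of mice 32, 34 and 40, against 5 and 86 in remote myocardium of mice 40 and 43. Both groups held a library with few reads and one with more, and the log2 change was -0.26 ± 1.54 (SE; limma, adjusted p = 0.939).

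In normalized reads, Myh7b and Mybpc3 (2 of 8) had all border zone libraries above the remote ones, where 18.9% of tested genes did. Myl3 (1 of 8) had all below, where 20.3% did. These shares are near the background. As a percent of reads, Myh7b and Mybpc3 overlapped between the regions. On that scale Myl2 and Mylk3 were below in all border zone libraries, as Myl3 was. Myl2 took 0.0121% to 0.0419% there against 0.0498% and 0.0767%, and Mylk3 0.00774% to 0.0316% against 0.0391% and 0.0416%. The background on that scale was not counted. The members' median log2 change was 0.55, against -0.21 over all tested genes. Over the 7083 tested genes with a mean of at least 100 normalized reads, the median was 0.24. Myl4 was the only member below that mean. Of the members 5 were positive and 3 negative, where 6742 of 14989 tested genes were positive. For the members the adjusted p ranged from 0.425 to 0.965 in edgeR on the recovered reads.

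Per kilobase of the longest transcript, the order of mean levels in the border zone was Myh6, Myh7, Mybpc3, Myh7b, Myl2, Mylk3, Myl3 and Myl4. This scale allows for transcript length only. How reads in introns and in stretches shared by Myh6 and Myh7 were counted is not given, and the order between genes may depend on it. Myh6 averaged 74373 ± 49499 normalized reads per kilobase in the border zone (SD, n = 3) and 29299 ± 9979 in remote myocardium (SD, n = 2). Myh7 averaged 28774 ± 16236 in the border zone and 12515 ± 4312 in remote myocardium on the same scale. Myh7b averaged 9752 ± 8421 in the border zone and 3733 ± 318 in remote myocardium, and Myl2 averaged 5988 ± 808 in the border zone and 6415 ± 1033 in remote myocardium, so the mean of Myl2 was below that of Myh7b in the border zone and above it in remote myocardium. Mybpc3 averaged 11020 ± 3240 in the border zone and 5452 ± 1138 in remote myocardium, where the mean of Myl2 was above it too. The 2 remote libraries differed in that order. Mybpc3 was above Myl2 in remote library 40 (6256 against 5684) and below it in remote library 43 (4647 against 7145). In the border zone the spread of Myh7b overlapped those of Mybpc3 and Myl2, while Mybpc3 was above Myl2 in each library.

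The members together took 3.15%, 2.51% and 2.31% of the reads of the border zone of mice 32, 34 and 40, against 3.72% and 2.97% of those of the remote myocardium of mice 40 and 43 (the widest 95% Wilson interval, for remote library 40, was 3.71% to 3.73%, for counting error only). As a share of all reads, the members were therefore highest in remote library 40, whereas in normalized reads border zone library 32 was highest. The 3 heavy chain genes had 218, 108 and 41.6 reads for each read of the 3 light chain genes in the border zone of mice 32, 34 and 40, against 56.9 and 28.8 in remote myocardium of mice 40 and 43. The border zone of mouse 40 lay between the remote values.

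Relative to Myh6, the light chains and Mylk3 spread further than the heavy chains did. Myl2 had 0.624, 1.24 and 3.49 reads per 100 Myh6 reads in the border zone of mice 32, 34 and 40, against 2.30 and 4.72 in remote myocardium of mice 40 and 43. Mice 32 and 34 were lowest, and the border zone of mouse 40 exceeded its remote myocardium 1.52-fold. Myl3 had 0.0762, 0.134 and 0.465 reads per 100 Myh6 reads in the border zone of mice 32, 34 and 40, against 0.429 and 0.779 in remote myocardium of mice 40 and 43. Mybpc3 had 7.92, 10.3 and 19.9 in the border zone of the same mice, against 11.8 and 14.4 in remote myocardium. The border zone of mouse 40 had a higher ratio than those of mice 32 and 34 for Myl2, Myl3 and Mybpc3, as for Mylk3. For the 6 ratios to Myh6 other than that of Myh7, the log2 differences ran from -1.78 (Myl3) to -0.10 (Myh7b), all groups overlapped, and the exact permutation test gave p = 0.4 to 0.8 (adjusted p = 0.8 for each over 7 ratios). Within mouse 40 all 6 were higher in the border zone, by 0.11 to 3.41 on the log2 scale, the last for the few reads of Myl4.

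**Figure D2:**
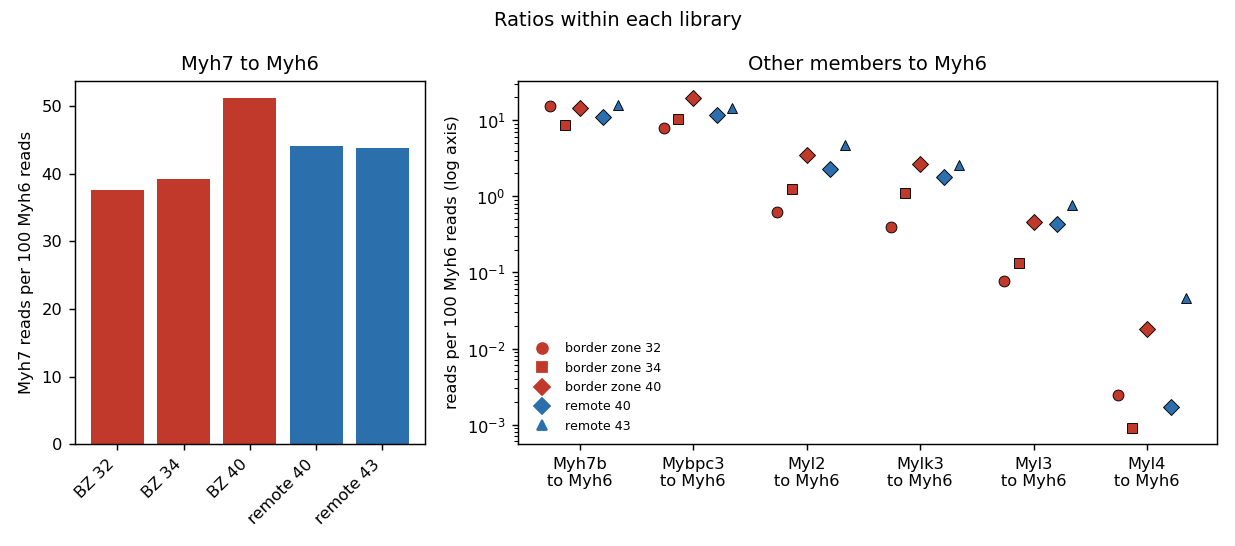
Left, Myh7 reads per 100 Myh6 reads in each library, with bars from 0; right, the other 6 genes per 100 Myh6 reads on a log axis, border zone left of remote within each gene. The Myh7 to Myh6 ratio stays between 37.6 and 51.2, while the Myl2 and Myl3 ratios are lowest in border zone libraries 32 and 34.

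The direction of the members' changes depended on the scaling. With libraries scaled to their total counts the log2 change of Myh6 was -0.29, that of Myh7 -0.34, that of Myh7b -0.38 and that of Mybpc3 -0.44. That scaling also moved the median of all tested genes to -1.59, and relative to it Myh6 was at 1.31 and Myh7 at 1.25. Quantile normalization, with an all-gene median of -0.06, put Myh6 at -1.32, Myh7 at -1.18, Myh7b at -0.68 and Mybpc3 at -0.81, below the median as well. TMM scaling kept the sign of each member, with an all-gene median of -0.29.

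**Figure D3:**
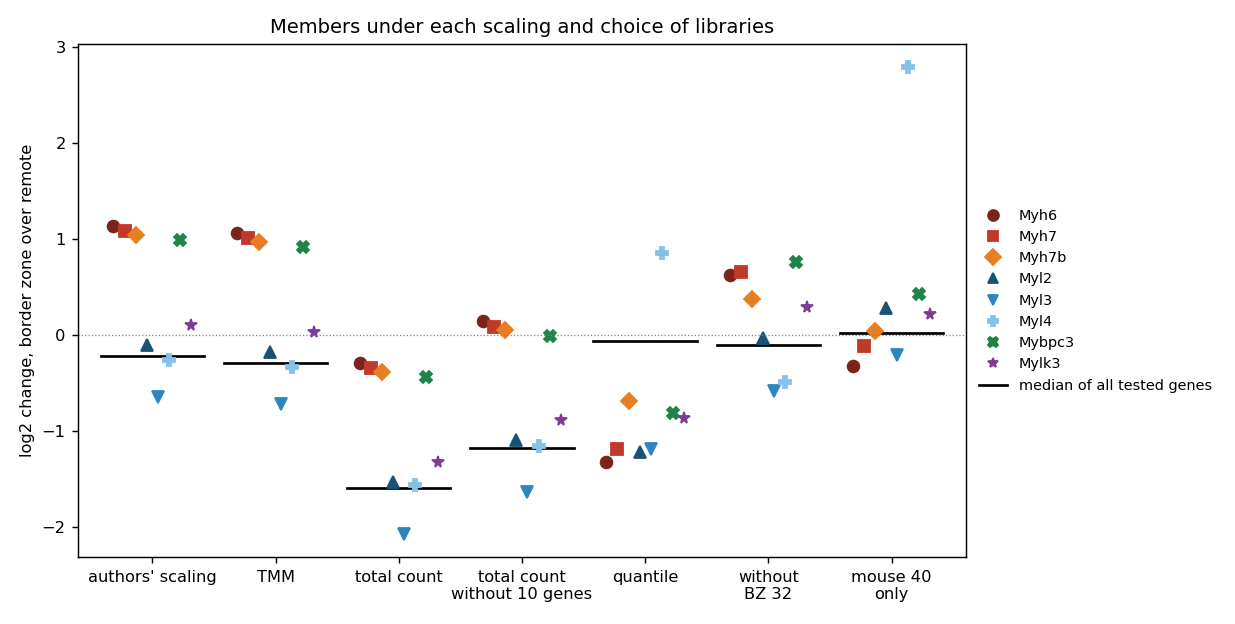
Log2 change, border zone over remote, of the 8 genes (symbols) under 5 scalings, without border zone (BZ) library 32, and within mouse 40 alone; black lines give the median of all tested genes. Myh6 goes from 1.14 under the authors' scaling to -0.29 with total counts and -1.32 with quantile normalization.

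The 2 hairpins with enough reads were lower in the border zone, where the mean levels of their hosts were higher. Mir208a, the hairpin in Myh6, had 20.6, 14.8 and 30.5 normalized reads in the border zone of mice 32, 34 and 40, against 134 and 109 in remote myocardium of mice 40 and 43. Every border zone library was far below both remote ones, while Myh6 itself was on average higher in the border zone. For Mir208a the log2 change was -2.46 ± 0.95 (SE; limma, adjusted p = 0.219), and the authors' deposited table calls it lower, with -2.45 and an adjusted p of 0.0431. It rests on 13, 12 and 39 reads in the border zone and 177 and 149 in remote myocardium. In DESeq2 the call ended without border zone library 32 (adjusted p = 0.103) or 34 (0.176) and without remote library 40 (0.421) or 43 (0.754), and held without border zone library 40 (0.0196). Within mouse 40 the log2 change was -2.09.

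Mir208b, the hairpin in Myh7, had 631, 594 and 726 normalized reads in the border zone of mice 32, 34 and 40, against 1833 and 1202 in remote myocardium of mice 40 and 43. The groups did not overlap, and the border zone was lower in mouse 40 too, by -1.33 on the log2 scale. The fitted log2 change of Mir208b was -1.19 ± 0.47 (SE; limma, adjusted p = 0.228), and -1.22 with an adjusted p of 0.179 in the authors' deposited table. Mir499 had 0, 0 and 6 reads in the border zone and 2 and 3 in remote myocardium, too few to test; a count of 0 allows up to 3 reads. A hairpin count is not a level of the mature microRNA printed above, and whether its reads came from precursor or unspliced host RNA was not tested.

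Set against their hosts, in ratios chosen after the values were seen, the hairpins did not overlap between the regions. Mir208a had 0.00268, 0.00365 and 0.0173 reads per 100 Myh6 reads in the border zone of mice 32, 34 and 40, against 0.0607 and 0.0809 in remote myocardium of mice 40 and 43. Mir208b had 0.218, 0.375 and 0.806 reads per 100 Myh7 reads in the border zone of mice 32, 34 and 40, against 1.89 and 2.04 in remote myocardium of mice 40 and 43. In both pairs border zone library 40 was nearest to the remote values and still below them. The log2 differences were -3.66 for Mir208a to Myh6 and -2.28 for Mir208b to Myh7 (exact permutation test, two-sided, p = 0.2 each, the smallest that 3 libraries against 2 allow). Within mouse 40, 1 heart, they were -1.81 and -1.23.

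Mhrt, counted under its older symbol and matched by gene ID, had 8660, 6675 and 3433 normalized reads in the border zone of mice 32, 34 and 40, against 5443 and 3491 in remote myocardium of mice 40 and 43. Its groups overlapped, with a log2 change of 0.42 ± 0.51 (SE; limma, adjusted p = 0.680). It shares 484 of its 1214 exon bases with Myh7 on the opposite strand, which are 5.62% of Myh7's exon length. The kit is not stated to keep strand, so reads there cannot be told apart. Mhrt may thus have been counted with Myh7 reads. Per 100 Myh7 reads it had 2.995, 4.209 and 3.813 in the border zone of mice 32, 34 and 40, against 5.61 and 5.92 in remote myocardium of mice 40 and 43. All border zone ratios were below both remote ones (log2 difference -0.66, exact permutation test p = 0.2), and mouse 40 had the same order, by -0.56.

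Not every gene inside Myh7 was lower. Gm17428, a gene of 93 bases at chr14:54976933-54977025 on the plus strand, in a Myh7 intron and named here after its values were seen, had 24258, 19385 and 4557 normalized reads in the border zone of mice 32, 34 and 40. In remote myocardium of mice 40 and 43 it had 3572 and 808 normalized reads. All border zone libraries were above both remote ones, and mice 32 and 34 well above. Its log2 change was 2.92 ± 0.77 (SE; limma, adjusted p = 0.140), and the authors' deposited table calls it higher, with 2.88 and an adjusted p of 0.0293. In DESeq2 the call ended without border zone library 32 (adjusted p = 0.0635) or 34 (0.0913) or remote library 43 (0.639), and held without border zone library 40 (0.00014) or remote library 40 (0.00189). Within mouse 40 the log2 change was 0.35, and per 100 Myh7 reads Gm17428 had 8.39, 12.2 and 5.06 in the border zone of mice 32, 34 and 40, against 3.68 and 1.37 in remote myocardium of mice 40 and 43. Mir208b and Gm17428 thus both lay within Myh7 and differed in opposite directions. Mir208b is on the strand of Myh7 and Gm17428 on the opposite strand.

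**Figure D4:**
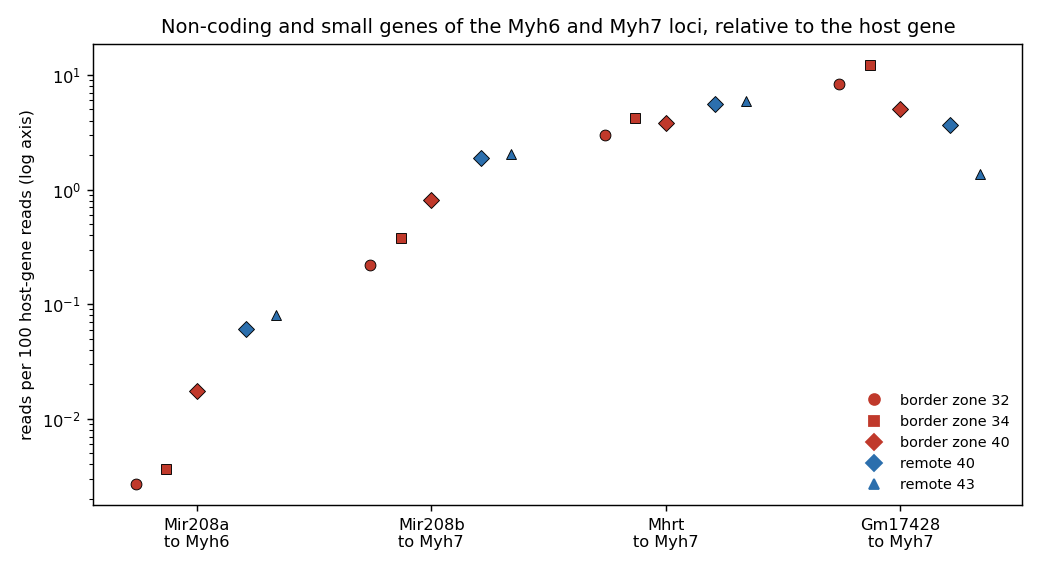
Reads of 4 genes inside the Myh6 and Myh7 loci per 100 reads of Myh6 or Myh7 (log axis), border zone left of remote for each ratio. Mir208a, Mir208b and Mhrt are lower on this scale in all border zone libraries, and Gm17428 is higher. Mhrt and Gm17428 lie on the strand opposite to Myh7.

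The neighbours of these genes in the thick filament and in myosin control were read from the same fit. That fit uses the authors' scaling, and the lists were not summarized under another scaling. Over all tested genes 6742 of 14989 were positive, with a median of -0.21, or 0.24 over the 7083 with a mean of at least 100. The authors' deposited table calls 3.46% of its genes higher and 1.98% lower. Of 12 tested thick filament and M-band genes all had a positive log2 change (median 1.16), and the authors' deposited table calls 0 of them lower. Ttn, the giant spring that spans the filament, had 4927480, 2396720 and 1445800 normalized reads in the border zone of mice 32, 34 and 40, against 1074110 and 724802 in remote myocardium of mice 40 and 43. Ttn had no overlap and a log2 change of 1.55 ± 1.15 (SE; limma, adjusted p = 0.484). The fast essential light chain Myl1 is called higher in the authors' deposited table, with a log2 change of 2.32 and an adjusted p of 0.0283. The M-band genes Myom1 and Myom2 had log2 changes of 0.60 and 0.22, neither called. Of 7 tested skeletal and developmental myosins, with Myl1 in that list too, 7 were positive (median 1.28) and 1 was called. In that list Myh4, Myh8 and Myh1 had the most reads, with log2 changes of 0.96, 1.54 and 0.30.

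The smooth muscle and non-muscle myosins had the highest list median, 2.07, with 9 of 10 positive, and 2 were called higher in the authors' deposited table. Myh9, a non-muscle heavy chain, had 40195, 15707 and 4743 normalized reads in the border zone of mice 32, 34 and 40, against 2530 and 763 in remote myocardium of mice 40 and 43. Its log2 change was 3.37 ± 0.79 (SE; limma, adjusted p = 0.140), and the authors' deposited table gives 3.62 with an adjusted p of 0.00619. Myh10, another non-muscle heavy chain, had 2.97 and 0.00914 in the authors' deposited table. Myh14, also non-muscle, had a log2 change of 2.62 and was not called. Myh11, the smooth muscle heavy chain, overlapped between the regions and was not called either. Of the 6 smooth muscle and pericyte markers, Cspg4 and Pdgfrb were higher in all border zone libraries than in both remote ones, Rgs5 was lower in all of them, and Acta2, Tagln and Myh11 overlapped; their part in the values of Myh9 and Myh10 was not tested.

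Of 15 tested genes of myosin phosphorylation 10 were positive (median 0.42), and 1 was called: the skeletal light chain kinase Mylk2, with 69.7, 242 and 192 normalized reads in the border zone of mice 32, 34 and 40, against 13.6 and 0 in remote myocardium of mice 40 and 43. The authors' deposited table gives Mylk2 a log2 change of 4.63 with an adjusted p of 0.00730, next to 0.13 and 0.924 for the cardiac kinase Mylk3. The phosphatase subunits Ppp1r12a and Ppp1r12b had log2 changes of 1.25 and 0.76, and the calcium-dependent kinase gene Camk2d -0.23, none called. Of 9 genes of myosin folding and turnover 4 were positive (median -0.34), and the authors' deposited table calls the chaperone Hsp90ab1 higher (2.41, adjusted p of 0.0487). The myosin chaperone Unc45b and its partner Smyd1 had log2 changes of -1.20 and -0.71, and Trim63, a ubiquitin ligase of the sarcomere, 0.48, none called.

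Of 25 tested regulators of the Myh6 and Myh7 genes 19 were positive (median 0.66), and 2 were called higher in the authors' deposited table: Srf, a transcription factor that binds CArG boxes (2.67, adjusted p of 0.0161), and the calcineurin-dependent factor Nfatc1 (2.40, 0.00479). Nfatc1 had 2856, 2505 and 1778 normalized reads in the border zone of mice 32, 34 and 40, against 559 and 344 in remote myocardium of mice 40 and 43. The thyroid hormone receptors Thra and Thrb, which bind the Myh6 and Myh7 promoters, had log2 changes of 0.70 and 0.40, neither called. The most abundant regulators, Mef2d, Smarca4 and Nfatc2, had log2 changes of 1.47, 2.04 and 2.15, none called. Over 5 libraries, among the 1388 genes averaging 1000 normalized reads or more, the genes whose levels followed Myh6 most closely were Akap8 (Pearson r = 0.998), Trib1, Hnrnpul2, Ube2o and Ep400, and those following Myh7 were Mtor (r = 0.997), Ube2o, Sbf1, Lamc1 and Rilpl1; these are descriptions, given with no test.

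**Figure D5:**
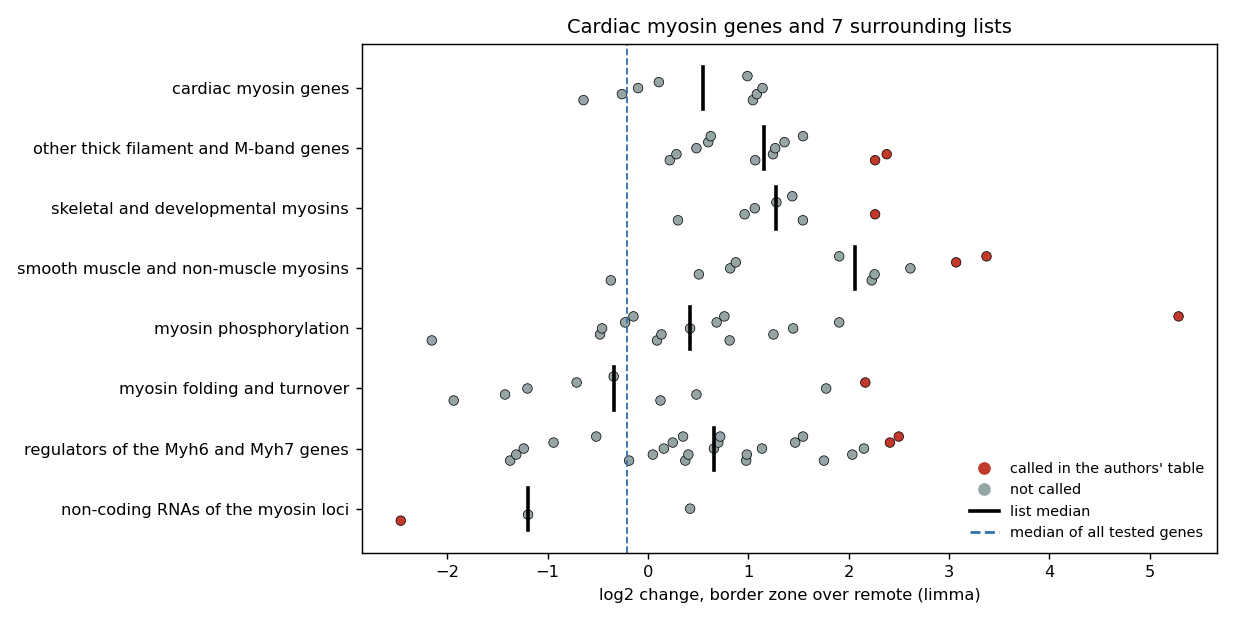
Log2 change, border zone over remote, of the 8 cardiac myosin genes and 7 surrounding lists, 1 point for each tested gene, with genes called in the authors' table in red. Black bars give list medians (0.55 for the cardiac myosin genes, 2.07 for smooth muscle and non-muscle myosins). The dashed line is the median of all tested genes, -0.21, which was 0.24 over the 7083 with a mean of at least 100.

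In normalized reads the 3 heavy chain genes were each highest in border zone library 32, next in border zone library 34 and lowest in remote library 43. Mybpc3 was too. The size factors that divide the reads were 0.631, 0.813 and 1.28 in the border zone of mice 32, 34 and 40. They were 1.32 and 1.37 in remote myocardium of mice 40 and 43. As a percent of reads, Myh6 (2.17%), Myh7 (0.956%) and Mybpc3 (0.257%) were highest in remote library 40, and Myh7b (0.302%) in border zone library 32. Within mouse 40 the log2 changes were -0.32 for Myh6, -0.11 for Myh7 and 0.04 for Myh7b. Whether the 3 genes varied together was not tested. The sequence before their starts was searched for motifs, and a link from motif to level was not tested. Each run below is RefSeq sequence (GRCm38.p6) on the gene's strand, taken from the 250 bases before a listed RefSeq start and stopped at the first base that GENCODE places in an exon of the gene, with motif matches in capitals. The Myh6 window lies inside the Myh6 gene of GENCODE, between its outermost first exon and the next exon, since RefSeq lists a start further in. The windows are chr14:54966642-54966857 (minus) for Myh6, chr14:54994627-54994876 (minus, the upstream of the listed starts) for Myh7 and chr2:155610993-155611211 (plus) for Myh7b:
Myh6: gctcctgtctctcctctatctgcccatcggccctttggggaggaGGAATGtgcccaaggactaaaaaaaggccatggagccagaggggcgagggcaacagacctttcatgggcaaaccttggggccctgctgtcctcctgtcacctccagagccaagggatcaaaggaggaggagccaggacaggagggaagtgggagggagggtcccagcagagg
Myh7: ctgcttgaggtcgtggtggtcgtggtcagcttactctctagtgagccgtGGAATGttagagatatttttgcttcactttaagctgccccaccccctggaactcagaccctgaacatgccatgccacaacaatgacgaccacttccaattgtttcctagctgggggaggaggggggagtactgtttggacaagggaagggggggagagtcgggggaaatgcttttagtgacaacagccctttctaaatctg
Myh7b: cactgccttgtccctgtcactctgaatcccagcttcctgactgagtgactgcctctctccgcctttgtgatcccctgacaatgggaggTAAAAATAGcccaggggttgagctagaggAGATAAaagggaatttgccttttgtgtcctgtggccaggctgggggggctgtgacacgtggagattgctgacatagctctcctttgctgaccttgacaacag
The motifs searched, on both strands, were the M-CAT core that TEAD factors bind, with the letters CATTCC. The site of the blood and heart zinc finger factors was searched as AGATAA, and the MEF2 site as TAAAAATAG. The start-site box was searched as TATAAA, and the CArG box by its name. No matches overlapped in these windows. Myh6 and Myh7 each held the M-CAT core as its reverse complement GGAATG, 206 and 201 bases before the RefSeq start, counted over the whole window and not from the end of the printed run. Myh7b held AGATAA 133 and TAAAAATAG 162 bases before its start. Of 32851 RefSeq windows of 250 bases, 12.6% held CATTCC, 9.99% AGATAA, 0.454% TAAAAATAG, 12.4% TATAAA and 1.47% a CArG box. The window of 250 bases before Mybpc3 held no match, nor did a second, shorter Myh7 window of 173 bases. The M-CAT core was not limited to the heavy chain genes. Myl3 held it 149 and 177 bases before its start, with a CArG box at 85. A Mylk3 window held it 148 bases before its start. A match describes the letters in the window and is not a bound site.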

How the data were processed

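Border zone (3 libraries) and remote (2 libraries) samples were grouped by the labels' titles. Per the submitters' processing notes, the authors used STAR, DESeq2 and mm10, versions not given; the counting tool, its treatment of introns and strand, the annotation and the read length are not given in any source used here. Per the file headers, the authors deposited 1 table of normalized counts (a signal: reads divided by a size factor), transcript lengths, log2 fold changes, p-values and adjusted p-values. Each library's values were whole multiples of 1 step: 100% of values above 0 came out whole within 0.01, giving the reads before normalization.

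The normalized values are not counts, so limma 3.58.1 (R 4.3.3) with a mean-variance trend was fitted to log2(value + 1) for 14989 genes with a mean of at least 10, border zone over remote, Benjamini-Hochberg adjusted over all genes, called under 0.05; log2 changes of low genes are understated by the added 1. It called 0 genes. On the recovered reads edgeR 4.0.16 called 0, and DESeq2 1.42.0 called 574 higher and 328 lower of 16592, the numbers in the authors' deposited table. Ratios within a library were compared with exact permutation tests (scipy 1.17.1). The fits were tested on simulated data with 200 changed genes. Spread between the simulated libraries was set and not taken from these libraries, so this was a check of the code only. Gene models were GENCODE's for GRCm38; sequences were RefSeq's (GRCm38.p6).

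All 8 members are named whatever their values. Of the other lists, those named are the genes called in the authors' table, the 3 most abundant of each pathway list, a set of key genes (among them Ttn, Myom1, Mhrt, Myh9, Unc45b, Thra and the hairpins), and the 5 genes most correlated with Myh6 and with Myh7. One gene that this rule names is not reported here. The members and lists were chosen with earlier results of these data known. The animals are described here only by strain, age, day after ligation and mouse number.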

Additional observations from a re-analysis of the deposited data

How the results depend on the processing

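With 3 libraries against 2, genes of few reads (Myl4, Mir208a) and any within-mouse value are limited by depth and number. None of the 8 myosin genes passed the threshold under any alternative run, whereas Mir208a and Gm17428 passed it with DESeq2. Over all genes, the counts called higher and lower were 0 and 0, but 104 and 5 with a mean of at least 100, 574 and 328 with DESeq2, and 1 and 0 with total counts, total counts without the 10 most abundant genes, or quantile normalization; leaving out 1 library gave 0 to 205 higher and 0 to 30 lower, the top values without border zone library 40. The cause was not tested. With total counts the sign turned for Myh6 (-0.29), Myh7 (-0.34), Myh7b (-0.38), Mybpc3 (-0.44), Mylk3 (-1.32) and Mhrt (-1.01). Without the 10 most abundant genes it turned for Mybpc3 (-0.0030), Mylk3 (-0.89) and Mhrt (-0.57). With quantile normalization it turned for Myh6 (-1.32), Myh7 (-1.18), Myh7b (-0.68), Mybpc3 (-0.81), Mylk3 (-0.87), Mhrt (-0.69) and Myl4 (0.86). Within mouse 40 alone it turned for Myh6 (-0.32), Myh7 (-0.11), Myl2 (0.28), Myl4 (2.79) and Mhrt (-0.66), and with only mice 40 and 43 for Myl2 (0.12), Myl4 (0.92) and Mhrt (-0.34). Myl3, Mir208a, Mir208b and Gm17428 kept their sign under each alternative run. Leaving out 1 library moved Myl2 between -0.263 and 0.0668, Myl4 between -2.13 and 1.61, Myh6 between 0.63 and 1.70, Myh7 between 0.660 and 1.502, Myh7b between 0.378 and 1.503, Mybpc3 between 0.77 and 1.21, Myl3 between -0.82 and -0.52 and Mylk3 between 0.00022 and 0.30. Where 1 library was left in a group, it was assumed to vary like the others. The log2 Myh7 to Myh6 ratio difference lay between -0.195 and 0.0277 when 1 library was left out, and was 0.22 both with only mice 40 and 43 and within mouse 40. Ratios to Myh6 with only mice 40 and 43 turned to 0.10 (Myh7b), 0.0851 (Myl2), 1.03 (Myl4), 0.61 (Mybpc3) and 0.29 (Mylk3). Within mouse 40 they turned to 0.37 (Myh7b), 0.60 (Myl2), 0.11 (Myl3), 3.41 (Myl4), 0.75 (Mybpc3) and 0.55 (Mylk3). Leaving out 1 library, they lay between -0.36 and 0.17 for Myh7b, -1.90 and -0.66 for Myl2, -2.52 and -1.22 for Myl3, -3.76 and 1.01 for Myl4, -0.53 and 0.13 for Mybpc3, and -1.70 and -0.33 for Mylk3. The DESeq2 fits of Mir208a and Gm17428 without single libraries were chosen after seeing the data. So were the ratios to Myh6 or Myh7 of the genes inside them. No paired analysis was possible because only mouse 40 gave both regions.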
